A study of Mus musculus with 12 samples.

Results

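The genes described are 8 mouse genes known for their expression in dendritic cells: *Xcr1*, *Clec9a*, *Tlr11*, *Dnase1l3*, *Ccl22*, *Siglech*, *Spib* and *Irf8*. They were picked by hand from 55471 genes in the count table, with measured values in view, because they were low in PRMT1_KO and because the 2 wild-type groups differed in them. The levels in PRMT1_KO, WT_PRMT1 and WT that chose them are therefore given as a description, without a test. Bulk RNA was sequenced from LSK cells, the marrow fraction without lineage markers and positive for Sca1 and Kit that is enriched for stem and early progenitor cells. Cells were taken from primary transplanted mice 6 weeks after tamoxifen, in 6 groups of 2 libraries. In PRMT1_KO *Prmt1*, which encodes an arginine methyltransferase, was targeted, and WT_PRMT1 is its wild type. The remaining groups are called the other experiment here. In dKO *Hoxa9* and *Ctnnb1* (the gene of β-catenin) were both targeted, and in HOXA9_KO and Bcat_KO only *Hoxa9* or *Ctnnb1* was. WT was read as their wild type. The labels used here name a PRMT1 experiment and do not say whether the remaining groups were run together. The column tag S4 occurs in both Bcat_KO and HOXA9_KO. The titles call the targeted groups KO whereas the genotype field says knockdown. The sources used here do not give the Cre driver, the deleted exons, the mice's ages or whether libraries of 1 group stem from different animals, so p-values may measure technical spread only.

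Dendritic cells detect microbes and dying cells and present antigen to T cells. Conventional type 1 dendritic cells (cDC1) cross-present antigen to CD8 T cells and depend on the transcription factors IRF8 and BATF3, whereas plasmacytoid dendritic cells (pDC) make type I interferon and depend on TCF4. Both arise from marrow progenitors that respond to the cytokine receptor FLT3, and *Irf8* is already expressed in some progenitors and in monocytes. XCR1 is the cDC1 receptor for the chemokine XCL1, CLEC9A is a receptor for actin exposed on dead cells, and TLR11 is a mouse endosomal receptor for profilin of protozoan parasites. DNASE1L3 is a secreted DNase, CCL22 is a chemokine of mature dendritic cells that acts through CCR4, SIGLECH is a pDC surface lectin, and SPIB is an ETS transcription factor of pDC and B cells.

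On GRCm38, *Xcr1* (ENSMUSG00000060509) spans chr9:123852315-123862029 on the minus strand and *Clec9a* (ENSMUSG00000046080) spans chr6:129408862-129424763 on the plus strand. *Tlr11* (ENSMUSG00000051969) lies at chr14:50357914-50363663 on the plus strand and *Dnase1l3* (ENSMUSG00000025279) at chr14:7964533-7994573 on the minus strand. *Ccl22* (ENSMUSG00000031779) is at chr8:94745590-94751699 and *Irf8* (ENSMUSG00000041515) at chr8:120736358-120756694, both on the plus strand. *Siglech* (ENSMUSG00000051504) is at chr7:55768178-55778925 on the plus strand and *Spib* (ENSMUSG00000008193) at chr7:44525993-44532071 on the minus strand. *Clec9a* overlaps *Clec1b* on the same strand, and over the 12 libraries *Clec9a* held 2214 counts and *Clec1b* 337. The gene that overlaps *Irf8* had 0 counts.

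RefSeq promoter windows on GRCm38.p6, running from 250 bases before the annotated start to 50 bases after it, were available for 7 of the 8 genes. Each was searched on both strands for 6 motifs of factors linked to these genes or to the targeted ones. The windows of *Tlr11* and *Xcr1* are shown because they held the only matches, and those of *Spib* and *Irf8* because these genes encode the 2 transcription factors of the group. All are 5′ to 3′ on the strand of the gene, with motif matches in capitals.
Tlr11, chr14:50357664-50357963, plus strand: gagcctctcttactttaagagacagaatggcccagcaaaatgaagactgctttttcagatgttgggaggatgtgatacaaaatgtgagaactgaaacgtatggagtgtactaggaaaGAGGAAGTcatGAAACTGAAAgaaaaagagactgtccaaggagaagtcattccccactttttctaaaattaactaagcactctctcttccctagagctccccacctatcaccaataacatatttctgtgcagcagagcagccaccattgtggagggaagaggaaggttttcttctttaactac
Xcr1, chr9:123861980-123862279, minus strand: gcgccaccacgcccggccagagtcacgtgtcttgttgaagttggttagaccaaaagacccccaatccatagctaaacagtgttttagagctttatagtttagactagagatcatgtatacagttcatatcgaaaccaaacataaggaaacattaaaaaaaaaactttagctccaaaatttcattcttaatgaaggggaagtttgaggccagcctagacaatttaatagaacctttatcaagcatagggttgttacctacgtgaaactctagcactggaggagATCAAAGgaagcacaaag
Spib, chr7:44532022-44532321, minus strand: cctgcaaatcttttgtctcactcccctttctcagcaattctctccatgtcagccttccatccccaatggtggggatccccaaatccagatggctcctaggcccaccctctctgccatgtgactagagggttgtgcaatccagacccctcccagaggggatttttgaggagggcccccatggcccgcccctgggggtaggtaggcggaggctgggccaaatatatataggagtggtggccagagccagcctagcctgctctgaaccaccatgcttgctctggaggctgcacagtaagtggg
Irf8, chr8:120736108-120736407, plus strand: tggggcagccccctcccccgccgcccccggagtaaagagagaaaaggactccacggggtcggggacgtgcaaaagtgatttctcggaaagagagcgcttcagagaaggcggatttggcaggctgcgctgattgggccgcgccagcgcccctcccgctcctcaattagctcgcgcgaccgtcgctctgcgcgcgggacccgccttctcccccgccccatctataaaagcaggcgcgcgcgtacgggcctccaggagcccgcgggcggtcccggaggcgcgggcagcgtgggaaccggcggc
In *Tlr11* the capitals mark GAGGAAGT, a PU.1-type ETS site, which starts at position -133 from the start site, and GAAACTGAAA, an interferon response element core, at -122. In *Xcr1* they mark ATCAAAG, the reverse complement of the TCF/LEF motif CTTTGAT, at 33 bases after the start. Among 32851 mouse promoter windows of the same length, 3.2% held GAGGAAGT, 3.44% held the interferon response element core and 3.73% held CTTTGAT. The ETS-IRF composite element (2.72% of windows), the AP-1 motif TGANTCA (7.81%) and the HOX-PBX motif TGATTTAT (0.977%) had no match in the 8 windows of the 7 genes. The matches describe letters in these windows, not binding.

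Libraries held 17569709 to 40553891 counts, and 17063 genes passed the filter on low counts, all 8 dendritic cell genes included. *Ccl22* reached the filter level of 0.433 CPM (counts scaled to the TMM-adjusted size of each library) in only 5 of 12 libraries, *Tlr11* in 9, *Xcr1* and *Dnase1l3* in 10 and the others in 12. In the targeted groups, *Prmt1* stood at 118 and 112 CPM in PRMT1_KO, against 283 and 292 CPM in WT_PRMT1. *Hoxa9* stood at 9.21 and 8.92 CPM in dKO and 12.2 and 8.36 CPM in HOXA9_KO, against 58.7 and 59.9 CPM in WT. *Ctnnb1* stood at 227 and 235 CPM in dKO and 276 and 267 CPM in Bcat_KO, against 315 and 342 CPM in WT. Transcripts linked to sex also separated knockout from wild-type libraries. The Y-linked *Ddx3y* was at 60.6 to 93.5 CPM in knockouts and 0.792 to 2.87 CPM in WT_PRMT1 and WT, so effects of a knockout and of sex cannot be told apart in knockout-to-wild-type comparisons. The X-inactivation RNA *Xist* was at 11.2 and 21.9 CPM in Bcat_KO, against 0.758 CPM or lower in the other knockout libraries and 163 to 202 CPM in the wild types. In bulk RNA, fewer cells of a type and less RNA per cell cannot be told apart.

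In dKO, HOXA9_KO and Bcat_KO, the 2 libraries of a group stood apart from each other in the dendritic cell genes. All 8 genes were higher in HOXA9_KO S5 than in HOXA9_KO S4, by 1.71-fold for *Dnase1l3* to 8.09-fold for *Tlr11*, and *Ccl22* was at 3.33 CPM in S5 and 0 in S4. Among all genes tested, 51.3% were higher in S5. In dKO, 6 of the 8 genes were higher in S6 than in S7, by 6.12-fold for *Ccl22*, 3.49-fold for *Xcr1*, 3.25-fold for *Dnase1l3*, 2.67-fold for *Siglech*, 2.48-fold for *Irf8* and 1.54-fold for *Spib*, where 48.7% of all genes tested were higher in S7. In Bcat_KO, 6 of the 8 genes were higher in S4 than in S3, by 9.65-fold for *Tlr11* and 2.07-fold for *Siglech*, with *Dnase1l3* at 2.92 CPM in S4 and 0.635 CPM in S3, where 45.7% of all genes tested were higher in S4. The low counts of *Ccl22* and *Tlr11* make their ratios imprecise. Where a call depends on these libraries, the value without them is given beside it.

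All 8 genes had their highest group mean in WT_PRMT1, and in PRMT1_KO they fell into a set near 0 and a set that kept a sizeable level. The set near 0 held *Xcr1*, *Dnase1l3*, *Tlr11* and *Ccl22*. *Xcr1*, the XCL1 receptor, was at 0.245 and 0.268 CPM in PRMT1_KO and at 21.6 and 14.3 CPM in WT_PRMT1. *Dnase1l3*, the secreted DNase, was at 0.368 and 0.178 CPM in PRMT1_KO and at 23.8 and 20.3 CPM in WT_PRMT1. *Tlr11*, the profilin receptor, had 0 and 0.178 CPM in PRMT1_KO and 9.90 and 7.91 CPM in WT_PRMT1. These 3 genes kept 1.43%, 1.24% and 1.00% of their WT_PRMT1 mean, and no PRMT1_KO library came near a WT_PRMT1 library. *Ccl22*, the CCR4 ligand, had no count in either PRMT1_KO library and 9.85 and 14.2 CPM in WT_PRMT1. Against a floor of 3 counts over the PRMT1_KO group it was at least 155-fold lower there. Counts seem to include each mate of a pair separately, so this floor stands for fewer fragments and the bound may be overstated.

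*Clec9a*, *Siglech*, *Spib* and *Irf8* were lower in PRMT1_KO but clearly measured. *Irf8*, the factor that cDC1 and monocyte progenitors need, was at 486 and 420 CPM in PRMT1_KO and at 993 and 1062 CPM in WT_PRMT1, so PRMT1_KO kept 44.1%. *Clec9a*, the dead-cell receptor, was at 5.15 and 5.04 CPM in PRMT1_KO and 21.3 and 21.1 CPM in WT_PRMT1 (24.0% kept). *Siglech*, the pDC lectin, was at 42.3 and 32.6 CPM in PRMT1_KO and 192 and 182 CPM in WT_PRMT1 (20.0% kept). The pDC factor gene *Spib* was at 10.6 and 8.03 CPM in PRMT1_KO and 79.6 and 75.7 CPM in WT_PRMT1 (11.99% kept). All 8 genes were lower in every PRMT1_KO library than in every WT_PRMT1 library, which held for 35.2% of all genes tested, and since this contrast chose the genes nothing is read from that count.

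WT_PRMT1 also stood above WT for all 8 genes, the other difference for which they were picked. *Siglech* was at 192 and 182 CPM in WT_PRMT1, against 16.2 and 11.3 CPM in WT, a ratio of means of 13.6. *Ccl22* was at 9.85 and 14.2 CPM in WT_PRMT1, against 0.628 and 0.278 CPM in WT, a ratio of 26.6 that rests on 18 counts in WT. For *Xcr1*, *Clec9a*, *Dnase1l3*, *Spib* and *Irf8* the ratio ran from 5.08 (*Irf8*) to 6.85 (*Dnase1l3*), and *Tlr11* had the smallest ratio at 3.10. Every WT_PRMT1 library exceeded every WT library for the 8 genes, as for 26.4% of all genes tested, again a count that the choice of genes fixed. The wild types belong to different experiments, so strain, handling and experiment cannot be told apart in this difference.

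Set beside WT of the other experiment, PRMT1_KO libraries did not rank alike for the 8 genes. *Irf8* (486 and 420 CPM in PRMT1_KO, 210 and 194 CPM in WT), *Siglech* (42.3 and 32.6 CPM in PRMT1_KO, 16.2 and 11.3 CPM in WT) and *Clec9a* (5.15 and 5.04 CPM in PRMT1_KO, 3.09 and 4.44 CPM in WT) were above both WT libraries. *Xcr1*, *Dnase1l3*, *Tlr11*, *Ccl22* and *Spib* were below both. These levels come from different experiments and are given side by side without a test.

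**Figure D1:**
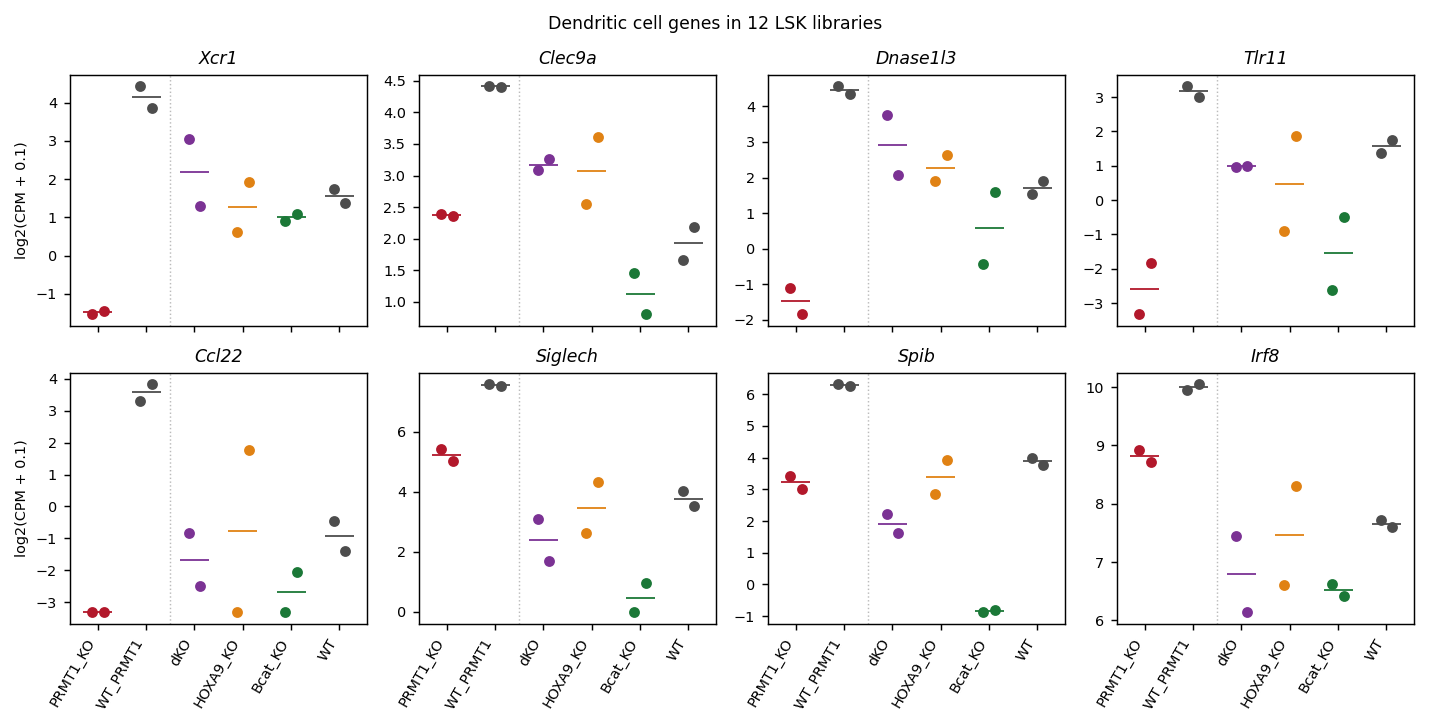
Level of each dendritic cell gene in the 12 libraries, as log2(CPM + 0.1) on the y axis; points are libraries, horizontal lines group means on that scale, and the dotted line separates the Prmt1 experiment (left) from the other one. WT_PRMT1 is highest in every panel, *Ccl22* has no count in PRMT1_KO, and *Spib* is lowest in Bcat_KO at 0.445 and 0.471 CPM.

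Below WT_PRMT1 the order of the group means differed from gene to gene. For *Xcr1* and *Dnase1l3* dKO came next (8.21 and 2.35 CPM for *Xcr1*, 13.3 and 4.10 CPM for *Dnase1l3*), and its libraries overlapped those of the group below it. PRMT1_KO was lowest for *Xcr1*, *Dnase1l3*, *Tlr11* and *Ccl22*, and its libraries overlapped those of Bcat_KO for *Tlr11* and *Ccl22*. For *Siglech* and *Irf8* PRMT1_KO came next after WT_PRMT1, above both libraries of every group of the other experiment. Bcat_KO was lowest for *Clec9a*, *Siglech*, *Spib* and *Irf8*, apart from the next group for the first 3 but overlapping dKO for *Irf8*. Per kilobase of exon, *Irf8* was the most abundant of the 8 in every group, with means of 64.2 CPM per kb in PRMT1_KO, 146 in WT_PRMT1, 17.4 in dKO, 29.4 in HOXA9_KO, 13.03 in Bcat_KO and 28.7 in WT. *Siglech* followed in WT_PRMT1 at 55.3 CPM per kb and *Spib* at 27.1.

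The tests of the dendritic cell genes that follow are of differences that did not choose them. Other genes are also compared below in PRMT1_KO against WT_PRMT1 and WT_PRMT1 against WT, the contrasts that chose the genes. Values from those contrasts are a description. An adjusted p under 0.05 (edgeR's quasi-likelihood test, Benjamini-Hochberg over 17063 genes) is called a change, and each value is a log2 fold change with its SE, from groups of 2 libraries. Comparisons of dKO, HOXA9_KO and Bcat_KO with each other take their group means from no library that entered the choice. The filter, scaling and spread of the fit still came from all 12 libraries, those that chose the genes included. Fitted on only the groups compared, *Spib* had adjusted p of 0.289 (dKO against HOXA9_KO), 0.0133 (dKO against Bcat_KO) and 0.000246 (HOXA9_KO against Bcat_KO). *Clec9a* then had 0.0102 in dKO against Bcat_KO and 0.0141 in HOXA9_KO against Bcat_KO. Comparisons with WT share the WT libraries with the choice and with each other. They are less independent, since the genes were chosen partly for being low in WT. Bcat_KO stood apart from dKO and HOXA9_KO in depth, at 29943990 and 40553891 counts against 17569709 to 26755289. Its *Xist* was at 11.2 and 21.9 CPM, against 0.619 CPM or lower in dKO and HOXA9_KO. The part of depth, of sex and of any separate run in the comparisons with Bcat_KO was not tested.

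In Bcat_KO, *Spib* and *Siglech* fell against WT, and nearly all of the other genes stood lower without passing the test. *Spib* was at 0.445 and 0.471 CPM in Bcat_KO and at 15.7 and 13.6 CPM in WT, its lowest level in any group. It fell by 4.98 ± 0.37 (adjusted p = 4.15e-06), and the call held without each library in turn. *Siglech* was at 0.889 and 1.84 CPM in Bcat_KO and 16.2 and 11.3 CPM in WT, and fell by 3.29 ± 0.77 (adjusted p = 0.0346). That call was lost without any 1 of the 4 libraries (adjusted p of 0.0910 to 0.131) and with no filter on low counts (0.0699). With these, 2 of 8 genes were lower and 0 higher, where 9.76% of all genes tested were called lower and 7.48% higher.

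*Tlr11* was at 0.0635 and 0.613 CPM in Bcat_KO and 2.51 and 3.24 CPM in WT, a value of -3.01 ± 1.03 (adjusted p = 0.0744). *Irf8* was at 98.8 and 85.0 CPM in Bcat_KO and 210 and 194 CPM in WT, a value of -1.14 ± 0.61 (0.267). *Clec9a* was at 2.64 and 1.65 CPM in Bcat_KO and 3.09 and 4.44 CPM in WT (-0.82 ± 0.34, 0.106). *Xcr1* was at 1.78 and 2.03 CPM in Bcat_KO and 3.24 and 2.50 CPM in WT (-0.59 ± 0.54, 0.500). Both Bcat_KO libraries lay below both WT libraries for 7 of the 8 genes, *Dnase1l3* being the exception, against 32.6% of all genes tested. *Dnase1l3* was at 0.635 and 2.92 CPM in Bcat_KO and 2.82 and 3.61 CPM in WT.

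In HOXA9_KO against WT, *Clec9a* was the 1 gene of the 8 that passed the test with all libraries. *Clec9a* was at 5.73 and 12.1 CPM in HOXA9_KO and 3.09 and 4.44 CPM in WT, and rose by 1.25 ± 0.33 (adjusted p = 0.0316). The call was lost without HOXA9_KO S5 (0.396), WT S1 (0.276) or WT S2 (0.0769), and no gene of the 8 was called when only these groups were fitted, without robust estimation of the spread, or with limma-voom. That made 1 of 8 genes higher and 0 lower, where 4.44% of all genes tested were called higher and 2.30% lower. The other 7 genes had HOXA9_KO libraries on either side of a WT library. *Irf8* was at 97.6 and 318 CPM in HOXA9_KO and 210 and 194 CPM in WT (0.04 ± 0.60, adjusted p = 0.988). *Siglech* was at 6.01 and 20.0 CPM in HOXA9_KO and 16.2 and 11.3 CPM in WT, and *Spib* at 7.15 and 15.0 CPM in HOXA9_KO and 15.7 and 13.6 CPM in WT. The *Spib* value was -0.40 (adjusted p = 0.532), but -1.03 (0.0332) without HOXA9_KO S5 and 0.036 (0.980) without HOXA9_KO S4. With libraries this far apart, moderate changes of *Irf8* were not detectable in HOXA9_KO.

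In dKO, *Spib* fell and *Clec9a* rose against WT. *Spib* was at 4.57 and 2.96 CPM in dKO and 15.7 and 13.6 CPM in WT, and fell by 1.96 ± 0.31 (adjusted p = 0.000707), a call that held without each library in turn. *Clec9a* was at 8.44 and 9.45 CPM in dKO and 3.09 and 4.44 CPM in WT, and rose by 1.25 ± 0.33 (adjusted p = 0.0142). This call was lost without WT S1 (0.152) or dKO S7 (0.0743). Of the 8 genes 1 was thus called higher and 1 lower, where 9.15% of all genes tested were called higher and 8.52% lower. *Dnase1l3* was at 13.3 and 4.10 CPM in dKO and 2.82 and 3.61 CPM in WT (1.43 ± 0.74, adjusted p = 0.262). *Xcr1* was at 8.21 and 2.35 CPM in dKO and 3.24 and 2.50 CPM in WT (0.88 ± 0.53, 0.314), a value of -0.28 without dKO S6. *Siglech* was at 8.40 and 3.15 CPM in dKO and 16.2 and 11.3 CPM in WT (-1.25 ± 0.69, 0.310), and *Irf8* at 175 and 70.4 CPM in dKO and 210 and 194 CPM in WT (-0.72 ± 0.61, 0.528).

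Between the knockout groups, *Spib* differed in each comparison. Its levels were 4.57 and 2.96 CPM in dKO, 7.15 and 15.0 CPM in HOXA9_KO, and 0.445 and 0.471 CPM in Bcat_KO, so that no libraries of different groups overlapped. In dKO against HOXA9_KO *Spib* fell by 1.56 ± 0.31 (adjusted p = 0.0222), a call lost without HOXA9_KO S5 (0.117) or dKO S7 (0.180), when only those groups were fitted (0.289) and with limma-voom (0.123). It was higher in dKO than in Bcat_KO by 3.02 ± 0.37 (8.4e-05) and higher in HOXA9_KO than in Bcat_KO by 4.58 ± 0.37 (8.78e-06). These 2 calls held without each library in turn, though in dKO against Bcat_KO limma-voom gave an adjusted p of 0.0526.

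*Clec9a* was higher in dKO and in HOXA9_KO than in Bcat_KO. It was at 8.44 and 9.45 CPM in dKO, 5.73 and 12.1 CPM in HOXA9_KO, and 2.64 and 1.65 CPM in Bcat_KO. The value was 2.07 ± 0.34 in dKO against Bcat_KO (adjusted p = 0.00027) and 2.07 ± 0.34 in HOXA9_KO against Bcat_KO (0.000553), and both calls held without each library in turn. Between dKO and HOXA9_KO the SE of the *Clec9a* difference was 0.32 and the libraries of dKO lay between those of HOXA9_KO. *Siglech* was at 6.01 and 20.0 CPM in HOXA9_KO and 0.889 and 1.84 CPM in Bcat_KO, and higher in HOXA9_KO by 3.23 ± 0.77 (0.0358), a call lost without HOXA9_KO S5, Bcat_KO S3 or Bcat_KO S4 (up to 0.142), with no filter (0.0717) and with limma-voom (0.0606). In dKO against Bcat_KO it stood at 2.04 ± 0.77 (0.102).

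Counted over the 8 genes, dKO against Bcat_KO gave 2 higher and 0 lower. Of all 17063 genes tested, 2760 were called higher there and 2042 lower (28.1% in either direction). HOXA9_KO against Bcat_KO gave 3 higher and 0 lower (10.8% and 6.52% of all genes), and dKO against HOXA9_KO gave 0 higher and 1 lower (0.416% and 1.33%). The first 2 of these share the Bcat_KO libraries. The median over the 8 genes was 2.06 in dKO against Bcat_KO, 2.28 in HOXA9_KO against Bcat_KO and -0.43 in dKO against HOXA9_KO, beside all-gene medians of 0.06, 0.06 and 0.01. *Irf8* was not called in any comparison of this experiment, with adjusted p of 0.249 or higher. Nor were *Xcr1*, *Dnase1l3*, *Tlr11* and *Ccl22*, of which *Xcr1* (1.47 ± 0.53, adjusted p = 0.0562) and *Dnase1l3* (2.27 ± 0.76, 0.0600) in dKO against Bcat_KO came closest. The SE of *Ccl22* was 1.75 or higher in each of these comparisons, so that changes of several fold were not detectable for it.

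**Figure D2:**
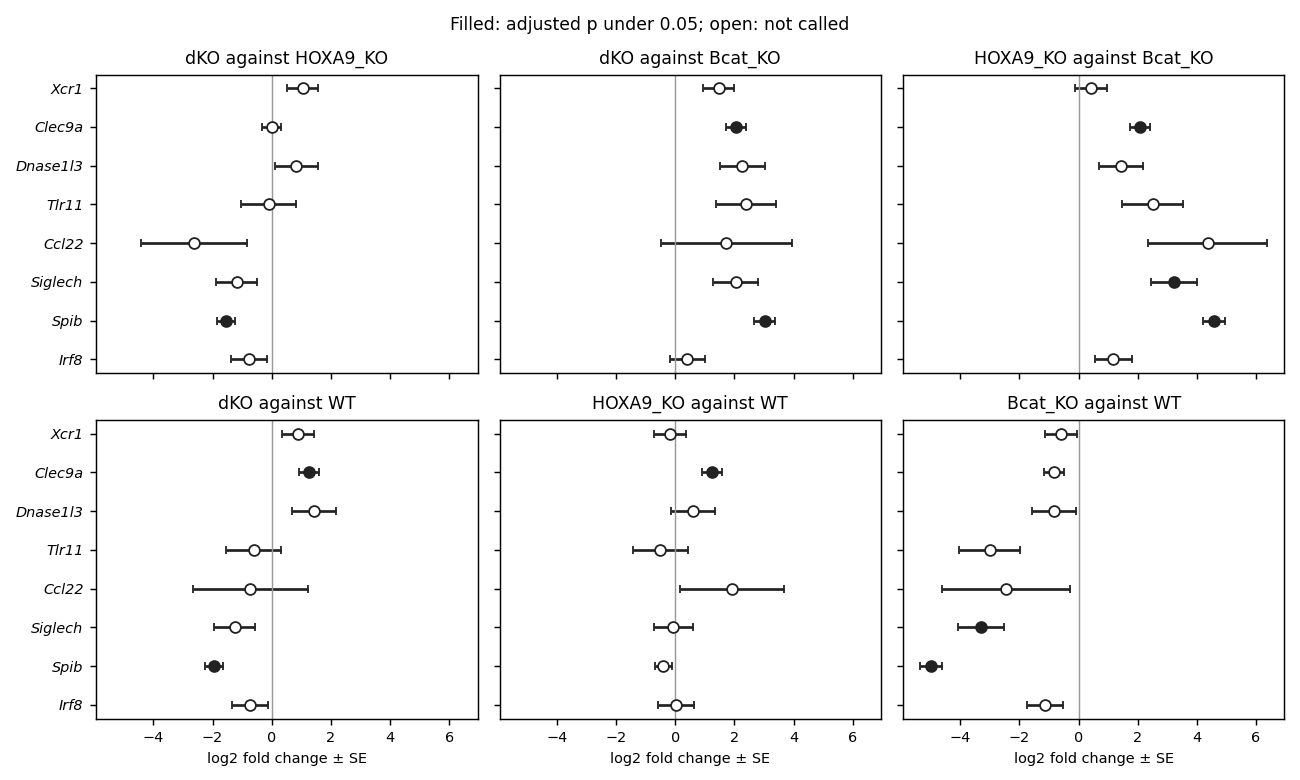
Log2 fold change (x axis) of the 8 dendritic cell genes in the comparisons that did not choose them, with bars for the SE; filled points passed an adjusted p of 0.05 over 17063 genes. *Spib* reaches -4.98 in Bcat_KO against WT and 4.58 in HOXA9_KO against Bcat_KO, whereas no *Irf8* point is filled.

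Across the 12 libraries, *Xcr1*, *Dnase1l3*, *Tlr11* and *Ccl22* varied together, and so did *Spib*, *Siglech* and *Irf8*. Pearson's r of log2(CPM + 0.1) was 0.801 to 0.943 among the 4 genes of the first set, with the highest value between *Xcr1* and *Dnase1l3*. It was 0.836 to 0.958 among the 3 genes of the second set, with the highest value between *Irf8* and *Siglech*. Between the sets it ran from 0.244 (*Dnase1l3* with *Irf8*) to 0.724 (*Ccl22* with *Spib*), and *Clec9a* had 0.596 to 0.771 with the other 7 genes. The gap between the sets rested on PRMT1_KO, where the first set was near 0 and the second was not. Without its libraries (n = 10, an alternative chosen after seeing the data), r was 0.727 to 0.961 between the sets, 0.780 to 0.881 within the first and 0.869 to 0.961 within the second. In dKO, HOXA9_KO and Bcat_KO alone (n = 6), the libraries that did not choose the genes, it was 0.371 to 0.902 between the sets, 0.595 to 0.854 within the first and 0.644 to 0.944 within the second. These are descriptions over libraries that share groups and depth, and those of PRMT1_KO, WT_PRMT1 and WT also chose the genes.

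**Figure D3:**
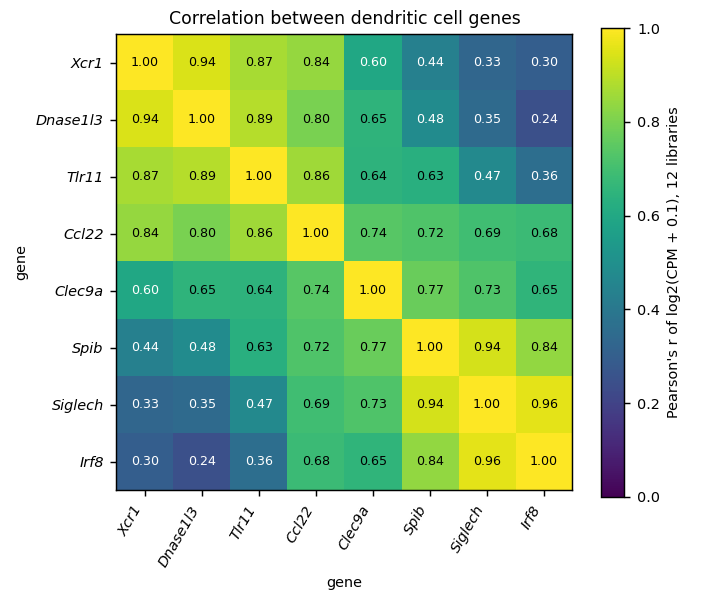
Pearson's r between the log2(CPM + 0.1) levels of each pair of dendritic cell genes over 12 libraries; colour and number give r. *Xcr1*, *Dnase1l3*, *Tlr11* and *Ccl22* have r of 0.801 or more with each other, and *Spib*, *Siglech* and *Irf8* have 0.836 or more, over libraries that include PRMT1_KO.

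Of 11915 other genes with enough signal, those closest to the mean log2 level of the 8 genes were *Ifi211*, *Ifi205*, *Snx22*, *Il18r1*, *Cep76*, *Itgae*, *Gsn*, *Tubb2a*, *Slc46a3* and *Enpep* (r of 0.937 to 0.961 over 12 libraries). *Ifi205*, *Snx22* and *Itgae* stood in the list of cDC1 markers used here, and *Itgae* encodes the integrin CD103. *Ifi205* was at 3.19 and 1.92 CPM in PRMT1_KO and 35.3 and 35.2 CPM in WT_PRMT1. In the other experiment it was at 6.58 and 2.35 CPM in dKO, 4.10 and 9.49 CPM in HOXA9_KO, 2.22 and 1.13 CPM in Bcat_KO and 6.38 and 8.33 CPM in WT. The nearest genes differed from gene to gene. *Xcr1* was closest to *Plbd1*, *Naaa* and *Batf3*, *Dnase1l3* to *Tlr3*, *Hepacam2* and *Slamf7*, and *Tlr11* to *Smtnl2*, *Sorcs2* and *Pigh*. *Clec9a* was closest to *Tubb2b*, *Il18r1* and *Fcrla*, and *Ccl22* to *Cep76*, *Tubb2a* and *Enpep*. *Siglech* was closest to *Ppfia4*, *Kmo* and *Tpm4*, *Spib* to *Stag2*, *Ly6d* and *Psmd14*, and *Irf8* to *Mpeg1*, *Kmo* and *Zfp207*. *Mpeg1*, which encodes the pore-forming perforin-2 of phagocytes, was at 339 and 298 CPM in PRMT1_KO and 719 and 770 CPM in WT_PRMT1.

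Other dendritic cell genes were followed in 6 lists that leave out the 8 genes and hold 94 genes, 92 of them tested. The lists are not restricted to genes found only in dendritic cells, and *Csf1r* also stands in the monocyte list used below. In PRMT1_KO against WT_PRMT1, 12 of the 92 rose and 36 fell (median -0.37, all genes -0.03), where 16.6% of all genes tested were called higher and 16.0% lower. Without 1 library 7 to 10 rose and 26 to 32 fell, the fewest that rose being 7 without WT_PRMT1 S10 or S11. The 8 genes were chosen on this contrast, so its list counts are a description. The list of 27 regulators of dendritic cell development ran the other way from the marker lists, with 8 that rose and 5 that fell (median 0.21). Among 14 other cDC1 markers 1 rose and 11 fell (median -2.89). The cell adhesion gene *Cadm1* fell by 3.78 ± 0.46, *Wdfy4*, needed for cross-presentation, by 0.94 ± 0.08, and the lysosomal thioesterase gene *Ppt1* by 0.93 ± 0.10. Among 21 other pDC markers 2 rose and 10 fell (median -0.47), and without 1 library 5 or 6 fell. *Irf7*, the interferon regulator, fell by 1.12 ± 0.20, the pDC surface marker gene *Bst2* by 0.85 ± 0.12 and *Cyb561a3* by 1.43 ± 0.12, and *Lair1*, an inhibitory receptor gene, rose by 0.89 ± 0.13. *Smim5*, the other pDC marker called higher, had 0.74 ± 0.25, and its call was lost without PRMT1_KO S8, WT_PRMT1 S10 or WT_PRMT1 S11 (adjusted p up to 0.201). Of 11 MHC class II genes 0 rose and 6 fell (median -1.27), with *H2-Aa* at -3.20 ± 0.52, *H2-DMb1* at -1.01 ± 0.17 and *Ciita*, the class II transactivator, at -2.67 ± 0.48. Of 11 cDC2 markers tested 1 rose and 3 fell. Of 18 pan-cDC and mature dendritic cell genes tested 2 rose and 2 fell, among them *Fscn1*, the actin bundler of mature cells, which fell by 2.38 ± 0.27, and *Cd274*, the gene of PD-L1, which rose by 1.39 ± 0.29.

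In WT_PRMT1 against WT, 31 of the 92 genes rose and 2 fell (median 1.08, all genes -0.01). Of all genes tested, 3.71% were called higher and 3.87% lower. The dendritic cell genes described here were chosen on this contrast too, so its list counts and changes are a description. Without 1 library the count that rose was 20 to 22, and it was 60 of 91 when only these groups were fitted. The cDC1 list had 10 of 14 higher (4 to 7 without 1 library, the fewest without WT S1), with *Cadm1* at 2.34 ± 0.42, *Wdfy4* at 0.67 ± 0.08 and *Ppt1* at 1.15 ± 0.10. The pDC list had 13 of 21 higher, with *Cd300c* at 4.16 ± 0.42, *Pacsin1* at 3.46 ± 0.34 and *Bst2* at 1.39 ± 0.12. *Fscn1* rose by 1.73 ± 0.26 and the costimulatory ligand gene *Cd86* by 1.59 ± 0.30.

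In Bcat_KO against WT, 8 of the 92 genes rose and 29 fell (median -0.62, all genes -0.04), where 7.48% of all genes tested were called higher and 9.76% lower. Without 1 library 15 to 20 fell, the fewest without WT S1, and 3 to 5 rose, the fewest without Bcat_KO S4. The 27 regulators again ran the other way, with 7 that rose and 3 that fell (median 0.11), and 3 to 5 that rose without 1 library. Of the 14 cDC1 markers 0 rose and 7 fell. *Wdfy4* fell by 0.63 ± 0.08 (adjusted p = 5.99e-05), *Ppt1* by 0.60 ± 0.10 (0.000605) and *Gcsam* by 2.56 ± 0.40 (0.000494). Of the 21 pDC markers 2 rose and 11 fell (6 to 9 without 1 library). The chemokine receptor gene *Ccr9* fell by 5.67 ± 0.69 (0.000397), *Cox6a2* by 2.44 ± 0.31 (0.000113) and *Cyb561a3* by 0.97 ± 0.11 (3.49e-05). *Tcf4*, which encodes the factor that directs pDC development, rose by 0.56 ± 0.09 (0.000601) in the same comparison. Of 18 pan-cDC and mature genes 0 rose and 6 fell (1 to 3 without 1 library), among them *Cd86* by 1.75 ± 0.31 (0.00124), and of 11 MHC class II genes 0 rose and 2 fell.

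In HOXA9_KO against WT, 3 of the 92 genes rose and 9 fell (median -0.06), where 4.44% of all genes tested were called higher and 2.30% lower. The count that fell was 3 without HOXA9_KO S4, 4 without WT S1 and 7 or 8 without WT S2 or HOXA9_KO S5. Of the 14 cDC1 markers edgeR called 0, DESeq2 0 and limma-voom 0, and 1 had an unadjusted p under 0.05. In dKO against WT, 7 rose and 17 fell (median -0.01), of which 1 and 8 were pDC markers, and without 1 library 4 to 10 rose and 13 to 22 fell. Of all genes tested, 9.15% were called higher and 8.52% lower there. The shares for dKO against HOXA9_KO, taken up last here, were 0.416% and 1.33%. In dKO against WT *Cyb561a3* fell by 1.01 ± 0.12 (adjusted p = 1.01e-05) and *Cox6a2* had -2.55 ± 0.31 (3.61e-05), and *Lair1* rose by 0.76 ± 0.13 (0.00039). In dKO against Bcat_KO, 31 rose and 14 fell (median 0.51), where 2760 of all 17063 genes tested were called higher and 2042 lower (28.1% in either direction). When only these groups were fitted 15 rose and 11 fell, and without 1 library 21 to 41 rose. Of the 14 that fell 10 were among the 27 regulators, of which 6 rose (median -0.17). The 31 included 6 of 14 cDC1 markers that rose and 0 that fell, with *Cadm1* at 3.66 ± 0.46 (2.33e-05) and *Ppt1* at 0.83 ± 0.10 (1.57e-05), and 5 of 11 MHC class II genes that rose (0 without Bcat_KO S4, 1 without Bcat_KO S3 and 9 without dKO S7). In HOXA9_KO against Bcat_KO, 25 rose and 8 fell (median 0.56), where 10.8% of all genes tested were called higher and 6.52% lower. Here too 6 of 14 cDC1 markers were higher and 0 lower (*Cadm1* at 3.33 ± 0.46, 0.000124, and *Wdfy4* at 0.58 ± 0.08, 0.000124). Without HOXA9_KO S5 the count that rose there was 12 and without Bcat_KO S4 it was 15. In dKO against HOXA9_KO, 2 rose and 3 fell (0 in either direction without HOXA9_KO S5, 12 lower without dKO S6), among them the pDC markers *Cox6a2* (-1.70 ± 0.31, 0.00949) and *Cyb561a3* (-0.55 ± 0.11, 0.0173). These pDC calls were lost without HOXA9_KO S5 or dKO S7 (up to 0.112 and 0.180), the same libraries on which the *Spib* call rests.

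**Figure D4:**
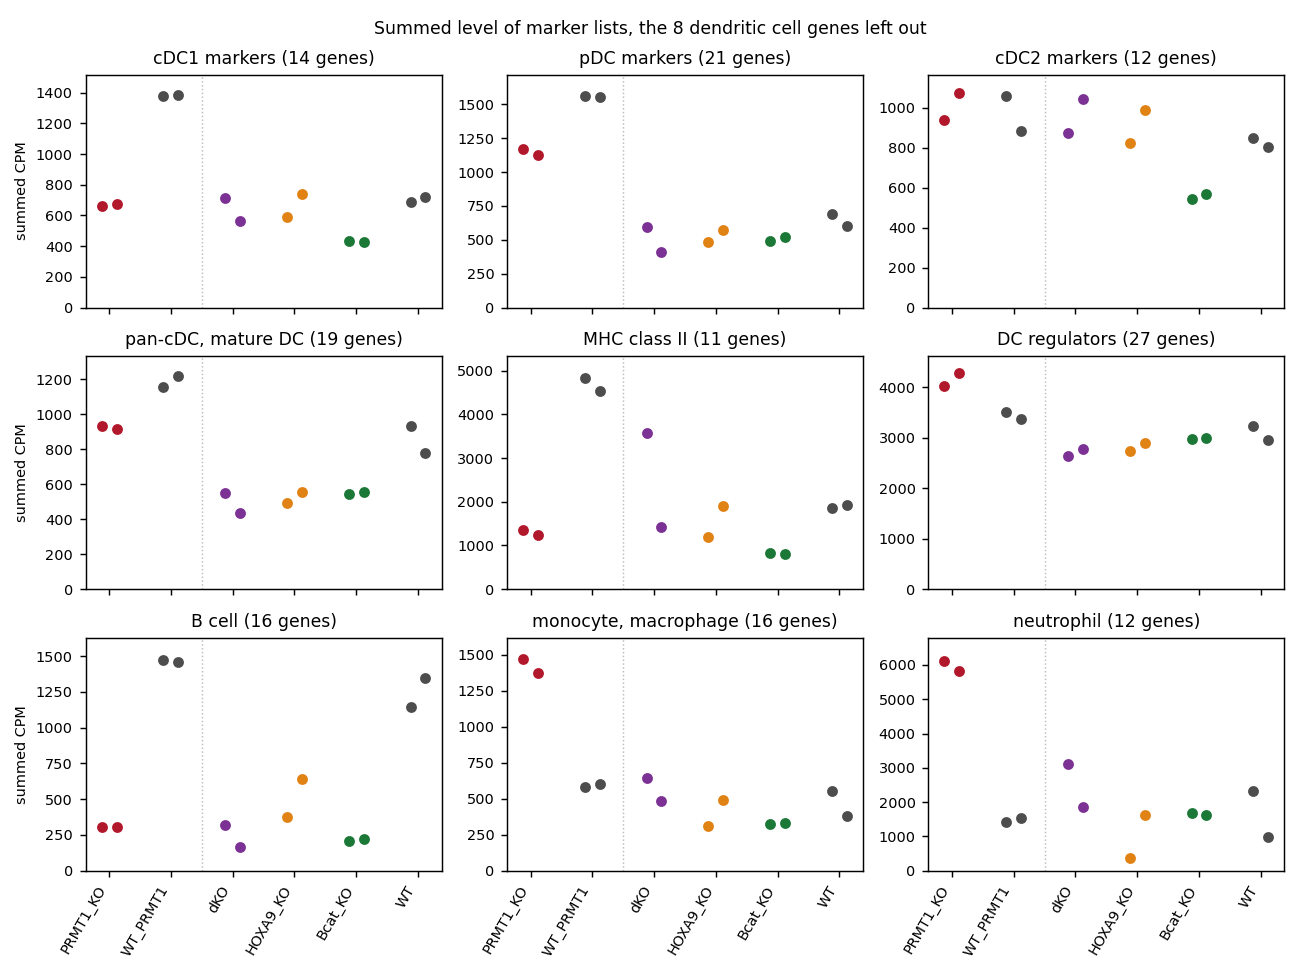
Summed CPM (y axis) of 6 dendritic cell lists and 3 lists of other cell types in each library; points are libraries and the dotted line separates the experiments. The cDC1 list is at 1378 to 1385 CPM in WT_PRMT1 and 429 to 436 CPM in Bcat_KO, and the B cell list is low in every knockout group.

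Markers of other blood cells moved in the same comparisons, for which the shares of all genes called are given above. The summed level of 16 B cell genes was 302 to 304 CPM in PRMT1_KO and 1460 to 1472 CPM in WT_PRMT1. It was 168 to 323 CPM in dKO, 374 to 643 CPM in HOXA9_KO, 209 to 223 CPM in Bcat_KO and 1146 to 1346 CPM in WT, with none of the 16 at 0 in any library. *Spib* is also expressed in B cells, and its calls are set here beside theirs. In Bcat_KO against WT, where *Spib* fell, 12 of the 16 fell and 0 rose (4 to 8 fell without 1 library). In dKO against WT, where it fell as well, 11 fell and 1 rose (7 to 11 fell without 1 library). In HOXA9_KO against Bcat_KO, where *Spib* rose by 4.58, 7 rose and 0 fell (median 1.94), and 2 rose without HOXA9_KO S5 or Bcat_KO S3. In dKO against Bcat_KO, where it rose by 3.02, 3 rose and 0 fell (median -0.13). In dKO against HOXA9_KO, where it fell by 1.56, 1 of the 16 fell and 0 rose, and 8 fell without dKO S6. The median of the 16 in HOXA9_KO against WT was -1.44, but 0 were called higher and 0 lower there. In PRMT1_KO against WT_PRMT1 12 of the 16 fell and 0 rose. The part of B cells in the *Spib* results and in the dendritic cell list counts was not tested. Between WT_PRMT1 and WT, where *Spib* was 5.30-fold apart, 1 of the 16 B cell genes rose and 0 fell.

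The 16 monocyte and macrophage genes summed to 1372 to 1469 CPM in PRMT1_KO and 582 to 605 CPM in WT_PRMT1, and 3 rose and 1 fell. The 12 neutrophil genes summed to 5819 to 6123 CPM in PRMT1_KO and 1430 to 1525 CPM in WT_PRMT1, and 3 rose and 0 fell. *Irf8*, which monocyte progenitors also express, kept more of its level in PRMT1_KO than the other 7 genes, and the part of these cells in that level was not tested. In HOXA9_KO S4, where all 8 genes were lower than in S5, the neutrophil sum was 369.97 CPM against 1634 CPM in S5. In Bcat_KO 3 of the 12 neutrophil genes were at 0 in each library.

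Neutrophil, T and NK cell and monocyte genes also moved in comparisons with Bcat_KO. In Bcat_KO against WT 5 of the 12 neutrophil genes fell and 1 rose (median -4.61), and 0 or 1 fell without 1 library. Their sum was 1621 to 1694 CPM in Bcat_KO and 977 to 2318 CPM in WT, so it overlapped. Of 15 T and NK cell genes 7 fell and 0 rose there (median -1.84, 3 to 5 without 1 library), with a sum of 218.6 to 220.2 CPM in Bcat_KO and 229.6 to 248.6 CPM in WT. In dKO against Bcat_KO 8 of the 12 neutrophil genes rose and 1 fell (median 5.43, 0 to 3 higher without 1 library), 7 of the 15 T and NK cell genes rose and 1 fell, and 5 of the 16 monocyte and macrophage genes rose and 0 fell. The part of these cells in the *Clec9a*, *Siglech* and *Spib* results was not tested.

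Genes of the LSK gate and of stem cells mostly ran opposite to the 8 dendritic cell genes in both contrasts that chose them. In PRMT1_KO against WT_PRMT1 5 of 9 rose and 1 fell (median 0.79), with a sum of 1611 to 1718 CPM in PRMT1_KO and 1252 to 1279 CPM in WT_PRMT1, and 3 or 4 rose without 1 library. In WT_PRMT1 against WT 1 rose and 4 fell (median -0.87), with a sum of 1252 to 1279 CPM in WT_PRMT1 and 1600.1 to 1657 CPM in WT, and 2 or 3 fell without 1 library. Their part in the 8 genes' levels was not tested.

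Regulators and partners of the 8 genes did not all follow them, and some that did not fall in PRMT1_KO still stood higher in WT_PRMT1 than in WT. *Batf3*, the partner of IRF8 in cDC1, was at 0.490 and 0.714 CPM in PRMT1_KO and 8.72 and 6.20 CPM in WT_PRMT1 (-3.60 ± 0.55), and was not called between groups of the other experiment. *Id2*, whose product opposes TCF4 and favours conventional dendritic cells, was at 83.3 and 84.7 CPM in PRMT1_KO and 58.1 and 51.5 CPM in WT_PRMT1. In Bcat_KO *Id2* was at 12.96 and 13.2 CPM and in WT at 35.6 and 29.0 CPM, and fell by 1.30 ± 0.20 (adjusted p = 0.00113). It was higher in dKO than in Bcat_KO by 2.08 ± 0.21 (1.77e-05). *Tcf4* was at 142 and 153 CPM in PRMT1_KO and 146 and 152 CPM in WT_PRMT1, with overlapping libraries, but at 100 and 99.6 CPM in WT. *Spi1*, the gene of the myeloid ETS factor PU.1 and a relative of *Spib*, was at 244 and 219 CPM in PRMT1_KO and 153 and 134 CPM in WT_PRMT1. *Zeb2*, another of the listed regulators, was at 42.8 and 57.2 CPM in PRMT1_KO and 44.9 and 36.9 CPM in WT_PRMT1, with overlapping libraries. It was at 52.9 and 53.5 CPM in Bcat_KO and 39.8 and 33.4 CPM in WT.

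*Flt3*, the receptor of the dendritic cell cytokine FLT3 ligand, was at 523 and 520 CPM in PRMT1_KO and 453 and 495 CPM in WT_PRMT1. It was at 133 and 82.9 CPM in dKO, 162 and 167 CPM in HOXA9_KO, 253 and 264 CPM in Bcat_KO and 537 and 421 CPM in WT. *Flt3* fell by 2.15 ± 0.22 in dKO (adjusted p = 0.000429), by 1.54 ± 0.21 in HOXA9_KO (0.00512, but 0.0619 without HOXA9_KO S4) and by 0.89 ± 0.21 in Bcat_KO (0.0278, up to 0.105 without 1 library). The lowest *Flt3* level was thus in dKO, where *Clec9a* was above WT.

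*Tlr12*, whose product pairs with TLR11 in profilin sensing, was at 20.5 and 21.7 CPM in PRMT1_KO and 18.6 and 16.4 CPM in WT_PRMT1, whereas *Tlr11* was at 0 and 0.178 CPM in the same PRMT1_KO libraries. In WT, *Tlr12* was at 4.50 and 7.03 CPM. *Unc93b1*, the chaperone of endosomal TLRs, was at 432 and 399 CPM in PRMT1_KO, 368 and 361 CPM in WT_PRMT1 and 186 and 175 CPM in WT. *Tyrobp*, the gene of the adaptor DAP12 that SIGLECH uses, was at 146 and 127 CPM in PRMT1_KO and 155 and 150 CPM in WT_PRMT1. Its level in WT was 58.5 and 40.7 CPM. *Xcl1*, the XCR1 ligand gene, was at 0.191 and 0 CPM in Bcat_KO and 2.72 and 2.92 CPM in WT, and fell by 4.95 ± 1.19 (adjusted p = 0.0164, up to 0.0793 without 1 library). *Ccr4*, the CCL22 receptor gene, was at 0.453 CPM or lower in every library and was not tested. *Ccl17*, the gene of the other CCR4 ligand, was at 2.45 and 1.96 CPM in PRMT1_KO, where *Ccl22* had no count, and at 1.02 and 0.809 CPM in WT_PRMT1.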

How the data were processed

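The authors deposited whole-number counts per gene for 12 libraries. Per the submitters' processing notes, Trim Galore 0.6.6, STAR 2.7.6a, featureCounts and the build GRCm38/mm10 were used. RNA was isolated with an RNeasy Plus Micro kit and libraries were directional (NEB Ultra II), per the labels' protocols. The sources used here do not give the annotation release or whether strand was used in counting. Even values made up 67.1 to 75.9% of nonzero counts, so both mates of a pair appear to have been counted. Columns named control were read as WT and control_PRMT1_KO as WT_PRMT1.

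From these counts, edgeR 4.0.16 (R 4.3.3) was run with filterByExpr (minimum count 10), TMM, and a quasi-likelihood fit of all 12 libraries with a mean per group and robust estimation (6 residual degrees of freedom). Robust estimation was set after the data were seen, because it matches an earlier analysis of these counts, and the fit without it is an alternative. Genes with a Benjamini-Hochberg adjusted p under 0.05 are called, and SE is the absolute log2 change over the square root of F. CPM use TMM-scaled totals. Correlations use log2(CPM + 0.1). Intervals from the floor of 3 counts cover counting error only. The steps were tested on simulated data. Figures were drawn with matplotlib. Gene names come from GENCODE M21, exon lengths were deposited with the counts, and promoters come from RefSeq.

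The 8 genes and the lists were chosen with earlier results of these data known, so no list is independent support. Named list genes were, per list, comparison and direction, up to 3 called genes with the smallest p, a mean of at least 1 CPM and no overlap between groups, of which those with a role worth stating are given. Regulators and partners were named whatever their values. Alternatives were RLE factors, library-size scaling, no filter, a mean of at least 5 CPM, fits of only the groups compared, halved counts, DESeq2 1.42.0, limma-voom 3.58.1 with quality weights, and leaving out each library.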

Additional observations from a re-analysis of the deposited data

How the results depend on the processing

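No paired analysis was possible because the columns carry no replicate numbers. The number of genes called differed by over 1.5 times in a few cases: 2294 against 1294 for WT_PRMT1 against WT and 3041 against 4802 for dKO against Bcat_KO when only the groups compared were fitted, and for dKO against HOXA9_KO (298) 623 with no filter, 3 when only those groups were fitted and 611 with DESeq2. Without 1 library the counts were 1242 to 2054 (Bcat_KO against WT), 485 to 904 (HOXA9_KO against WT), 1710 to 2931 (dKO against WT), 1801 to 2305 (HOXA9_KO against Bcat_KO), 132 to 540 (dKO against HOXA9_KO) and 590 to 638 (WT_PRMT1 against WT). Of the 8 dendritic cell genes, the number called in HOXA9_KO against WT (1) was 0 when only those groups were fitted, without robust estimation (an alternative chosen after seeing the data) and with limma-voom. In dKO against Bcat_KO (2) it was 5 with no filter, 4 with halved counts, 4 without robust estimation, 6 with DESeq2 and 1 with limma-voom. In dKO against HOXA9_KO (1) it was 0 when only those groups were fitted and with limma-voom. Without 1 library it was 1 to 2 in Bcat_KO against WT, 0 to 1 in HOXA9_KO against WT, 1 to 2 in dKO against WT, 2 to 5 in HOXA9_KO against Bcat_KO, 0 to 1 in dKO against HOXA9_KO and 2 to 4 in dKO against Bcat_KO. Directions turned only for log2 fold changes that were not called with all libraries. Leaving out 1 library spread them over -3.99 to 8.26 for *Ccl22*, -0.42 to 0.95 for *Xcr1* in HOXA9_KO against Bcat_KO; -6.44 to 2.88 for *Ccl22*, -1.05 to 0.66 for *Irf8*, -1.19 to 0.55 for *Siglech*, -1.03 to 0.036 for *Spib*, -2.70 to 0.30 for *Tlr11*, -1.01 to 0.36 for *Xcr1* in HOXA9_KO against WT; -0.037 to 5.62 for *Ccl22*, -0.38 to 0.94 for *Irf8* in dKO against Bcat_KO; -4.39 to 5.72 for *Ccl22*, -0.44 to 0.64 for *Clec9a*, -0.26 to 1.45 for *Dnase1l3*, -1.56 to 0.33 for *Irf8*, -0.91 to 2.09 for *Tlr11*, -0.12 to 1.89 for *Xcr1* in dKO against HOXA9_KO; -2.48 to 0.061 for *Ccl22*, -0.28 to 1.52 for *Xcr1* in dKO against WT. *Clec9a* in dKO against HOXA9_KO, close to 0, was 0.016 with RLE factors, 0.024 at a mean of at least 5 CPM, 0.015 with DESeq2 and 0.024 with limma-voom. Limma-voom also gave -0.19 for *Ccl22* and -0.14 for *Irf8* in HOXA9_KO against WT, and 0.38 for *Tlr11* in dKO against HOXA9_KO. The cause of these turns was not tested. Library-size scaling moved the median of all genes in PRMT1_KO against WT_PRMT1 by -0.14, and other scalings moved no comparison's median by over 0.1. *Spib* kept its call in Bcat_KO against WT, dKO against WT and HOXA9_KO against Bcat_KO under every alternative run. Counts of *Ccl22*, *Tlr11*, *Xcr1* and *Dnase1l3* of 10 or fewer over the PRMT1_KO group limit the precision there.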
